A study of Homo sapiens with 30 samples.

Results

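VEGFA, ADM and ANGPTL4 encode 3 secreted proteins that act on blood vessels. They were found by their gene names in the per-well expression files, as 3 of 22538 distinct names, each with 1 row. Vascular endothelial growth factor A (VEGFA) is the ligand that drives endothelial cells to divide, sprout and become leaky. Adrenomedullin (ADM) is a peptide that widens vessels and tightens the endothelial barrier through a receptor made of CALCRL and a RAMP protein. Angiopoietin-like 4 (ANGPTL4) blocks lipoprotein lipase and, in its cleaved forms, changes vessel permeability. All 3 genes are known targets of the hypoxia-inducible factors (HIF), which bind a short DNA element when oxygen is scarce, and ANGPTL4 is also a target of the PPAR nuclear receptors. Airway epithelium is a known source of VEGFA for the vessels beneath it.

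The cells were BEAS-2B, an established and virally immortalised human bronchial epithelial line, so the results describe a single line. Cells were exposed for 30 min on a rocker in 5 ways: control, burning charcoal without shisha, charcoal with herbal shisha free of tobacco, charcoal with tobacco shisha, and tobacco shisha on an electric heater. Shisha is the flavoured mixture smoked in a hookah. RNA was taken at 2 h or 24 h from 3 wells per exposure, giving 10 groups and 30 libraries, each sequenced with 50-base single-end reads. The dose was the highest that gave no release of lactate dehydrogenase at 24 h; whether doses were equal between exposures is not known from the labels. What the control wells received, and whether wells were independent cultures, is not given in the sources used here, so p-values measure only the spread between wells. All exposed groups of a time share the same 3 control wells.

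Values are FPKM, read counts scaled to transcript length and sequencing depth. Differences are on the log2(FPKM + 1) scale, and "rose" or "fell" marks a Benjamini-Hochberg adjusted p below 0.05 in limma's moderated test over 8531 genes, with n = 3 wells per group throughout. On this scale changes of low genes such as ANGPTL4 come out smaller than they are. ADM and VEGFA were at 1 FPKM or more in all 30 libraries, ANGPTL4 in 12. ANGPTL4 passed the filter on low values (at least 1 FPKM in at least 3 libraries) only through the groups where it was high, so its passing is no support for a difference. The log2 data of the wells of a group correlated at 0.983 to 0.992. Among the 24 h wells, 2 stood closer to each other than to their own group: the third herbal well and the second tobacco-on-charcoal well. Of 10 bronchial epithelial markers, 7 were in the files; KRT8 (466 to 728 FPKM), KRT18 and KRT19 were abundant, whereas KRT5, CDH1, TP63 and EPCAM stayed below 1 FPKM in every well. All 10 endothelial markers were below 1 FPKM, with a summed level of 0.586 to 1.41 FPKM per well. Among 9 fibroblast markers, COL1A1, COL1A2, PDGFRB and THY1 were expressed. COL3A1, LUM, PDGFRA and FAP stayed below 1 FPKM in every well, and DCN was listed at 0. Of 10 immune markers only CD14 and CD68 were above 1 FPKM, and CD3E, ITGAM, MS4A1 and NKG7 were listed at 0. In bulk RNA, fewer expressing cells and less RNA per cell cannot be told apart.

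All 3 genes lie on the plus strand of hg38. VEGFA spans chr6:43770211-43786487 and has 20 RefSeq mRNA transcripts, while its deposited row carries only NM_001025367, an 8-exon transcript, so isoforms were not separated. ADM spans chr11:10305073-10307397 with 1 transcript, NM_001124, of 4 exons. ANGPTL4 spans chr19:8364155-8374370 and its row carries NM_001039667, of 6 exons. Antisense genes in GENCODE overlap VEGFA (AL136131.3) and ANGPTL4 (RAB11B-AS1), but they share 0 exon bases with the matched transcripts. The 250 bases before the start were available from RefSeq (GRCh38.p14, plus strand) for ADM (chr11:10304823-10305072) and ANGPTL4 (chr19:8363905-8364154), 2 of the 3 genes. They are shown because these genes rose together at 2 h and separated at 24 h. Capitals mark the HIF element core (ACGTG or GCGTG, searched on both strands) and a TATA box (TATAAA, searched on the strand of the gene).
ADM: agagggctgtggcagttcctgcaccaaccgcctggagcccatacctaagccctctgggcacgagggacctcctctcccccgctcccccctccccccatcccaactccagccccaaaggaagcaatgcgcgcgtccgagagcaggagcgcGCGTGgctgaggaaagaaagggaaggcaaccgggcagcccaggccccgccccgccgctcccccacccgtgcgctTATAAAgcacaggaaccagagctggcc
ANGPTL4: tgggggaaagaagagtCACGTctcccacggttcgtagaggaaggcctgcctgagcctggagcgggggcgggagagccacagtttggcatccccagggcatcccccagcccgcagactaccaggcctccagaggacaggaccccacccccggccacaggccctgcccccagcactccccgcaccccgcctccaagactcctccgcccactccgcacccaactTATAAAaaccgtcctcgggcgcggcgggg
The core stood 101 bases before the ADM start and, on the opposite strand as CACGT, 234 bases before the ANGPTL4 start. A match to the core is common: 43.2% of 35116 windows of the same length hold one. The TATA box, 27 bases before the ADM start and 29 before the ANGPTL4 start, is found in 6.80% of windows. The core can also be part of an E-box (CACGTG, in 6.34% of windows), and the AP-1 site (TGANTCA, both strands) is in 6.57% of windows; neither sequence was found in these 2.

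VEGFA rose within 2 h of every exposure. Its level was 2.87, 3.89 and 3.42 FPKM in the 3 control wells, and 10.7, 9.32 and 9.43 FPKM after charcoal alone. It was 12.4, 11.7 and 12.6 FPKM after herbal shisha. All 6 exposed wells lay above every control well, with no overlap, and the same held for the other exposures. After tobacco on charcoal the wells held 12.7, 12.1 and 12.3 FPKM. After tobacco on the electric heater they held 11.2, 11.2 and 6.85 FPKM, the last being the lowest exposed well of the time. The group means were 2.89, 3.61, 3.64 and 2.88 times the control mean in that order. The log2 differences were 1.30 ± 0.12 (SE), 1.60 ± 0.12, 1.61 ± 0.12 and 1.27 ± 0.12, with adjusted p from 6.18e-10 to 2.55e-08.

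ADM, by far the most abundant of the 3 per transcript length, also rose after every exposure at 2 h. Control wells held 51.8, 52.2 and 58.0 FPKM. Charcoal wells held 186.4, 162.6 and 141.7 FPKM, and herbal wells 138.6, 175.2 and 148.9 FPKM. These 2 groups overlapped each other and stood clear of the controls. Tobacco on charcoal gave a tight group at 171.7, 173.2 and 166.7 FPKM. Tobacco on the electric heater gave the highest wells of the study, 280.8, 256.8 and 204.3 FPKM, above all other wells at either time. The log2 differences were 1.57, 1.49, 1.64 and 2.16 (SE 0.15 each, adjusted p from 8.03e-11 to 2.82e-08), or 3.03, 2.86, 3.16 and 4.58 times the control mean.

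ANGPTL4 was close to absent in control wells at 2 h, which were listed at 0.0469, 0 and 0.0305 FPKM. Charcoal brought it to 1.53, 1.03 and 1.61 FPKM and herbal shisha to 2.38, 1.20 and 2.11 FPKM. It was 1.14, 1.20 and 1.07 FPKM after tobacco on charcoal. Every well exposed over charcoal was above 1 FPKM and above every control well. Tobacco on the electric heater gave 0.979, 0.566 and 0.290 FPKM, still above every control well but below every well exposed over charcoal. Since 1 control well was listed at 0, no ratio is given; the log2 differences were 1.21, 1.47, 1.06 and 0.63 (SE 0.20 each), with adjusted p of 5.91e-05, 2.87e-06, 0.000194 and 0.0160. The last call was lost without the first electric-heater well (0.47, adjusted p = 0.101). All 3 genes were therefore called higher in all 4 comparisons at 2 h, where the share of the 8531 genes called higher was 8.16% after charcoal, 10.6% after herbal shisha, 8.5% after tobacco on charcoal and 9.27% after tobacco on the electric heater. Called lower were 16.2%, 27.7%, 26.7% and 24.8% of genes. In the same order, the number of genes with a larger log2 difference than ADM was 61, 73, 53 and 33. It was 94, 58, 56 and 91 for VEGFA, and 122, 75, 115 and 247 for ANGPTL4.

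**Figure D1:**
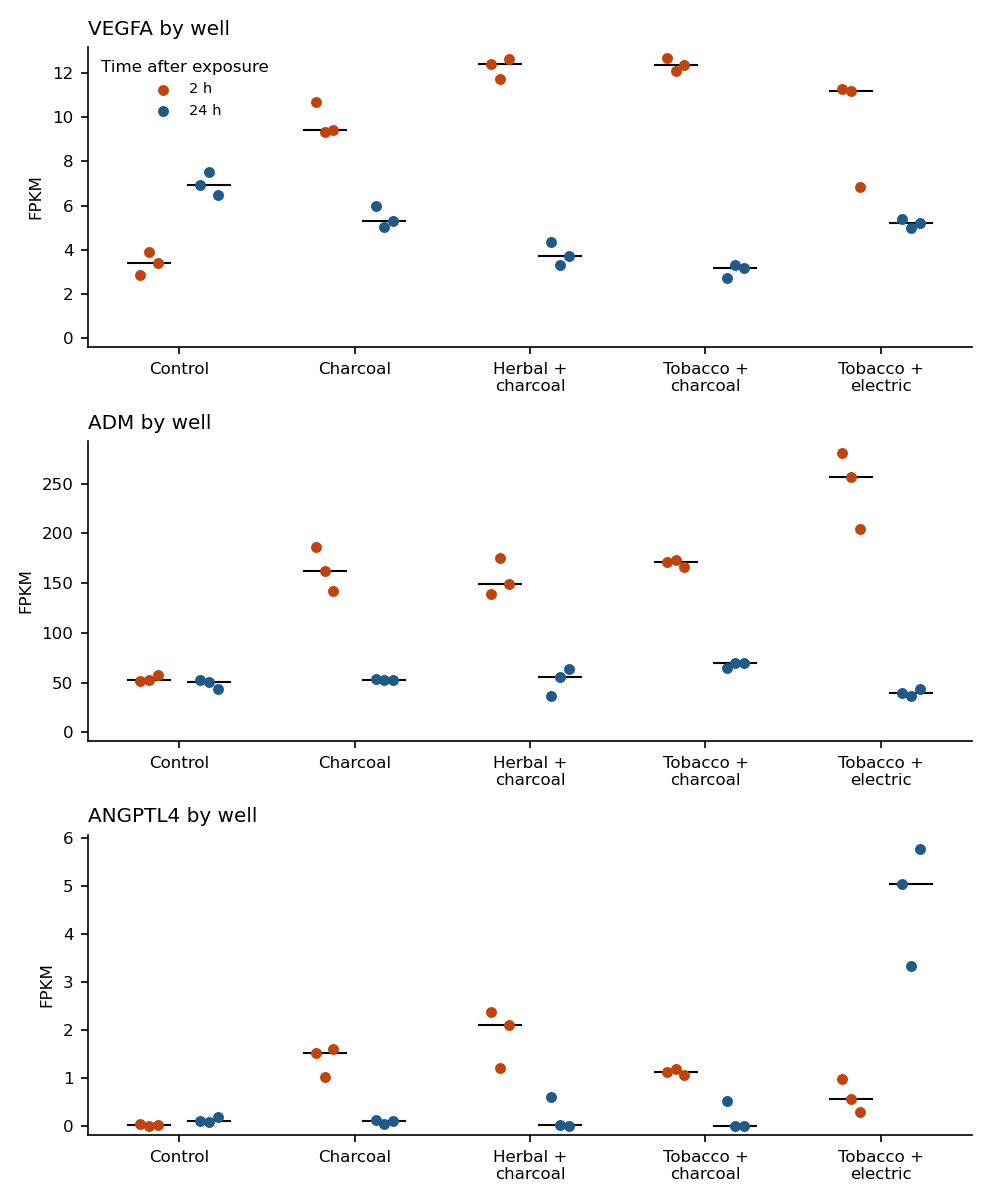
FPKM of VEGFA, ADM and ANGPTL4 (linear axes) in each of the 30 wells, by exposure, at 2 h (orange) and 24 h (blue); each point is a well and each line the median of 3 wells. All exposed wells at 2 h sit above the 2 h controls for each gene, and the only ANGPTL4 wells above 3 FPKM are the 3 of electrically heated tobacco at 24 h (5.04, 3.33 and 5.77 FPKM).

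At 24 h the 3 genes no longer moved together. Among them 0 were called after charcoal, 1 after herbal shisha (lower), and 1 higher and 1 lower after tobacco on charcoal and on the electric heater. Of all genes, 6.05%, 16.5%, 25.9% and 34.3% were called higher in these 4 comparisons and 3.82%, 10.4%, 18.6% and 29.5% lower. A call by itself was therefore common with tobacco at this time.

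VEGFA was lower than control at 24 h after 3 of the 4 exposures. The 24 h control wells held 6.92, 7.52 and 6.47 FPKM, higher than all 3 control wells of 2 h. Charcoal wells held 5.99, 5.01 and 5.30 FPKM, all below the controls, but the difference of -0.31 (95% interval -0.56 to -0.06) missed the threshold after adjustment (adjusted p = 0.114). After herbal shisha the wells held 4.36, 3.32 and 3.74 FPKM, and after tobacco on charcoal 2.73, 3.33 and 3.16 FPKM. VEGFA fell by 0.73 and 0.97 on the log2 scale in these groups (SE 0.12, adjusted p = 0.000138 and 1.28e-06), to 0.546 and 0.441 times the control mean. The summed fibroblast markers were also lower in these groups (257 to 288 and 194 to 267 FPKM against 303 to 324 FPKM). The epithelial sum was lower with herbal shisha (738 to 812 against 867 to 1030 FPKM) and overlapped the controls with tobacco on charcoal (771 to 885 FPKM). After charcoal alone both sums were above control (358 to 367 and 1131 to 1208 FPKM), and their part in the VEGFA result was not tested. After tobacco on the electric heater it held 5.39, 5.003 and 5.20 FPKM and fell by 0.36 (adjusted p = 0.0119), a call lost without the second 24 h control well (-0.31, adjusted p = 0.0534).

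ADM was back near the control level at 24 h. Control wells held 52.4, 51.0 and 43.3 FPKM, charcoal wells 53.7, 52.1 and 52.2 FPKM, and herbal wells 36.1, 56.1 and 63.9 FPKM. Both exposed groups overlapped the controls, and the differences were 0.11 (95% interval -0.19 to 0.41) and 0.05 (-0.25 to 0.35). Tobacco on charcoal wells held 65.0, 69.5 and 69.4 FPKM, all above the controls, and ADM rose by 0.47 ± 0.15 (adjusted p = 0.0109). Without the third 24 h control well this call was lost (0.39, adjusted p = 0.0584). Tobacco on the electric heater gave 39.6, 36.0 and 43.5 FPKM, overlapping the controls by 1 well, with a difference of -0.29 (95% interval -0.59 to 0.01, adjusted p = 0.0823). That difference passed the threshold without the third 24 h control well (-0.38, adjusted p = 0.0481) and in a fit on these 2 groups alone (adjusted p = 0.0380).

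ANGPTL4 at 24 h was high after 1 exposure. Control wells held 0.115, 0.0932 and 0.200 FPKM and charcoal wells 0.131, 0.0476 and 0.101 FPKM. Herbal wells were listed at 0.619, 0.0333 and 0 FPKM, and tobacco on charcoal wells at 0.530, 0 and 0 FPKM. In each of the last 2 groups 1 well was above the controls and the other 2 below. The differences from control were -0.06, 0.06 and 0.02 (SE 0.20 each), with adjusted p from 0.848 to 0.944. Tobacco on the electric heater gave 5.04, 3.33 and 5.77 FPKM, the highest ANGPTL4 values of the study. The mean of 4.72 ± 1.25 FPKM (SD) was 34.6 times the control mean of 0.136 ± 0.0567 FPKM, and the difference of 2.31 ± 0.20 (adjusted p = 9.70e-10) was exceeded by 24 of the 8531 genes. On the same RNA, VEGFA was lower than control and ADM overlapped it. In these wells the summed fibroblast markers were lower than in the 24 h controls (138 to 158 against 303 to 324 FPKM), and so were the summed epithelial markers (768 to 829 against 867 to 1030 FPKM). The part of either in the result was not tested. After scaling for estimated relative depth, the low ANGPTL4 values lay within 0.1 of whole multiples of a common step, chosen to fit 8 such values. The nearest multiples were 6, 6 and 13 in the control wells and 8, 3 and 8 in the charcoal wells of 24 h. Whether a step is 1 read was not tested; if it is, few reads stand behind the low means.

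**Figure D2:**
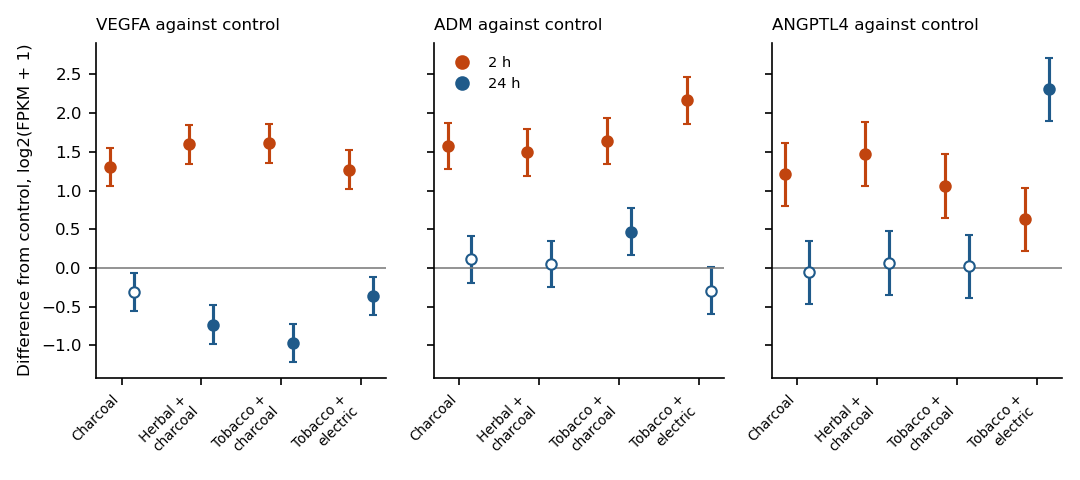
Difference of each exposure from the control of the same time, in log2(FPKM + 1), for VEGFA, ADM and ANGPTL4 at 2 h (orange) and 24 h (blue). Points are limma estimates from 3 wells per group, bars their 95% intervals without adjustment, filled points those with an adjusted p below 0.05. All 12 points at 2 h are filled and above 0; at 24 h the ANGPTL4 point of electrically heated tobacco (2.31) stands above its own 2 h point (0.63).

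The change of each effect between the 2 times was tested as an interaction, the effect at 24 h minus the effect at 2 h. All 12 interactions passed the threshold, where 23.2% of genes did so after charcoal, 32.3% after herbal shisha, 41.1% after tobacco on charcoal and 57.6% after tobacco on the electric heater. For VEGFA the change was -1.61 (charcoal), -2.33 (herbal), -2.58 (tobacco on charcoal) and -1.63 (electric heater). For ADM it was -1.46, -1.44, -1.17 and -2.46 in that order. For ANGPTL4 it was -1.27, -1.41 and -1.04 over charcoal and of the opposite sign, 1.68 ± 0.28 (SE), on the electric heater (adjusted p = 2.37e-05). With a pseudocount of 0.1 this last value was 1.94 and missed the threshold (adjusted p = 0.0584).

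VEGFA also changed in the control wells, against which each exposure is measured. It rose there 2.05-fold from 2 h to 24 h (0.86 ± 0.12, adjusted p = 2.56e-05), a difference exceeded by 34 genes, where 16.9% of genes were called in either direction. ADM (-0.14, 95% interval -0.44 to 0.16) and ANGPTL4 (0.15, -0.26 to 0.56) were not called. Within the exposures VEGFA fell from 2 h to 24 h, with differences of -0.75 (charcoal), -1.47 (herbal), -1.72 (tobacco on charcoal) and -0.77 (electric heater). ADM fell with differences of -1.61, -1.58, -1.32 and -2.60, and ANGPTL4 over charcoal with -1.12, -1.26 and -0.89. ANGPTL4 rose by 1.82 ± 0.20 after tobacco on the electric heater, from a mean of 0.612 to 4.72 FPKM. The shares of genes called in these 4 comparisons were 42.5%, 50.5%, 55.4% and 67.8%. Rescaling libraries by the median of ratios moved the median of all genes from 0.11 to 0.00 (herbal) and from 0.12 to 0.01 (tobacco on charcoal), and changed no call on the 3 genes in these comparisons over time.

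Exposures were next compared with each other, 12 comparisons for each gene. At 2 h, adding herbal or tobacco shisha to charcoal gave no called difference in any of the 3 genes. VEGFA was higher by 0.29 (95% interval 0.05 to 0.54, adjusted p = 0.0775) with herbal and by 0.31 (0.06 to 0.56, adjusted p = 0.0787) with tobacco shisha, with every well above the charcoal wells. Both passed the threshold in fits on the 2 groups alone (adjusted p = 0.0128 and 0.0206). ADM differed from charcoal by -0.08 (-0.38 to 0.22) and 0.07 (-0.23 to 0.37), and ANGPTL4 by 0.26 (-0.15 to 0.67) and -0.15 (-0.56 to 0.26). The share of genes called was 24.4% with herbal and 18% with tobacco shisha. Tobacco and herbal shisha over charcoal, where 0.61% of genes were called, differed by 0.01 (-0.24 to 0.26) for VEGFA and 0.15 (-0.15 to 0.45) for ADM. For ANGPTL4 the tobacco wells were all below the herbal wells, with a difference of -0.42 (-0.83 to -0.01, adjusted p = 0.398).

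Tobacco on the electric heater was then compared with the 3 charcoal exposures at 2 h. By label, only tobacco on charcoal differs from it in the heat source alone, and whether their doses were equal is not known. With tobacco on the electric heater ADM was higher than with charcoal alone by 0.59, than with herbal shisha by 0.67 and than with tobacco on charcoal by 0.52 (SE 0.15, adjusted p = 0.00299, 0.00127 and 0.0114). In the same RNA the ANGPTL4 differences were -0.58, -0.84 and -0.43 (SE 0.20, adjusted p = 0.0253, 0.00251 and 0.124), the first 2 called and the last not. Both calls were lost with a pseudocount of 0.1 (-1.16 and -1.56, adjusted p = 0.146 and 0.0599). VEGFA did not differ from charcoal alone (-0.03, 95% interval -0.28 to 0.22) but was called lower than with herbal shisha (-0.33, adjusted p = 0.0452) and than with tobacco on charcoal (-0.34, adjusted p = 0.0428). These 2 VEGFA calls rest on the third electric-heater well: without it the differences were -0.12 and -0.13 (adjusted p = 0.421 and 0.387). They were also lost without any 1 well of the 3 herbal or 3 tobacco-on-charcoal wells, respectively (adjusted p from 0.0620 to 0.120). The ADM difference from tobacco on charcoal was lost without the first electric-heater well (0.42, adjusted p = 0.0654). The ANGPTL4 difference from charcoal was lost without charcoal well 1 or 3 or electric-heater well 2 or 3 (adjusted p from 0.0535 to 0.155). Of all genes, 34.8%, 28.1% and 23.3% were called in these 3 comparisons.

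At 24 h the order of the exposures was different for each gene. VEGFA was lower with herbal shisha (-0.42, adjusted p = 0.00995) and with tobacco on charcoal (-0.66, adjusted p = 0.000120) than with charcoal alone, and all of these wells lay below the charcoal wells. The herbal call was lost without the first charcoal well (adjusted p = 0.0549) or the second herbal well (adjusted p = 0.0579). With tobacco on the electric heater VEGFA was close to charcoal alone (-0.05, 95% interval -0.30 to 0.20) and above herbal shisha (0.37, adjusted p = 0.0115) and tobacco on charcoal (0.61, adjusted p = 0.000253). The difference from herbal shisha was lost without the second herbal well (0.30, adjusted p = 0.0672). Between tobacco and herbal shisha over charcoal the VEGFA difference was -0.24 (-0.49 to 0.01, adjusted p = 0.248). ADM was lower with tobacco on the electric heater than with tobacco on charcoal (-0.76, adjusted p = 0.000167), with no overlap. It was also lower than with charcoal alone (-0.40, adjusted p = 0.0191), a call lost without the second electric-heater well (adjusted p = 0.0777). Calls near the threshold were those of ADM with the electric heater against herbal shisha (-0.35, adjusted p = 0.0466), whose wells overlapped, and tobacco against charcoal alone (0.36, adjusted p = 0.0476). The latter was lost without any 1 of its 6 wells, and the former without herbal well 2 or 3 or electric-heater well 1 or 2 (-0.27, -0.18, -0.35 and -0.28). ADM with tobacco on charcoal was 0.42 above herbal shisha (adjusted p = 0.0920), a difference that passed the threshold without the third herbal well (0.58, adjusted p = 0.0179).

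ANGPTL4 on the electric heater stood 2.36 above charcoal alone (50.7 times its mean of 0.0930 FPKM), 2.24 above herbal shisha and 2.29 above tobacco on charcoal at 24 h, with adjusted p from 6.82e-10 to 1.27e-08. The 3 wells were above all 12 other wells of the time. Between the 3 charcoal exposures ANGPTL4 differed by at most 0.12, with intervals reaching from -0.45 to 0.53. The share of genes called was 31.5% for herbal shisha and 44.1% for tobacco shisha against charcoal, and 5.12% between them. It was 63% for the electric heater against charcoal, 55.9% against herbal shisha and 47.8% against tobacco on charcoal.

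Over all 10 groups VEGFA ran from 12.4 ± 0.295 FPKM (SD) with tobacco on charcoal at 2 h to 3.07 ± 0.308 FPKM with the same exposure at 24 h. The 4 exposed groups of 2 h were the 4 highest, followed by control at 24 h (6.97 ± 0.527 FPKM). Control at 2 h (3.39 ± 0.514 FPKM) was last but one, and the lowest 3 groups overlapped in turn. ADM ran from 247.3 ± 39.1 FPKM with electrically heated tobacco at 2 h to 39.7 ± 3.74 FPKM with the same exposure at 24 h, its highest and lowest groups. Between them, tobacco on charcoal, charcoal and herbal shisha of 2 h (170.6, 163.6 and 154.2 FPKM) overlapped. Tobacco on charcoal at 24 h (68.0 ± 2.53 FPKM) stood apart, and below it each group overlapped the next, from control at 2 h through charcoal, herbal shisha, control and the electric heater at 24 h. ANGPTL4 was highest with the electric heater at 24 h, apart from the rest. Herbal shisha, charcoal and tobacco on charcoal at 2 h followed and overlapped in turn, and the electric heater at 2 h came next (0.612 ± 0.347 FPKM) and overlapped the herbal wells of 24 h. All 3 control wells of 2 h were below those of 24 h for ANGPTL4. The ratio of ADM to VEGFA within a well was 16.1 ± 2.45 in control at 2 h and 7.02 ± 0.486 in control at 24 h. It was highest with electrically heated tobacco at 2 h (25.9 ± 3.52) and was 7.64 ± 0.632 with that exposure at 24 h. With tobacco on charcoal it was 13.8 ± 0.465 at 2 h and higher, 22.2 ± 1.48, at 24 h.

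Of the receptors through which VEGFA and ADM act, those in the files were low apart from NRP2 and RAMP1; NRP1 and RAMP2 were not analysed here. FLT1, KDR and FLT4, the receptor kinases for the VEGF ligands, had group means of at most 0.102, 0.0474 and 0.282 FPKM. NRP2, a VEGF co-receptor, was the only one of 4 receptor genes in the files that was tested. It was not called at 2 h, and at 24 h it rose after charcoal (4.76 ± 0.412 against 2.38 ± 0.382 FPKM, 0.77, adjusted p = 0.00169). It fell after the other 3 exposures (-0.60, -0.89 and -0.99). CALCRL, the core of the ADM receptor, had a highest group mean of 0.00661 FPKM, and RAMP3 was listed at 0. RAMP1, which pairs with CALCRL to form the CGRP receptor, was the 1 tested gene of 9 in the files from the adrenomedullin family. It rose with tobacco on the electric heater at 2 h (0.29) and with charcoal at 24 h (0.39) and fell at 24 h with tobacco on charcoal (-0.43) and on the electric heater (-0.54). ADM2 and ADM5, the relatives of ADM, stayed below 1 FPKM in group means.

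Around ANGPTL4, 3 of 15 family and partner genes were tested. ANGPTL8, another angiopoietin-like protein that acts on lipoprotein lipase activity, was listed at 0 in every well. LPL, the lipase that ANGPTL4 blocks, was not called at 2 h. At 24 h it fell with herbal shisha (-0.39), with tobacco on charcoal (-0.66) and with tobacco on the electric heater (-0.67, from 1.56 ± 0.0266 to 0.611 ± 0.135 FPKM, adjusted p = 1.47e-07). FURIN, a protease known to cleave angiopoietin-like proteins, rose after charcoal at 2 h (0.29) and after every exposure at 24 h, by 0.46, 0.27, 0.59 and 0.80. ANGPTL2, a secreted relative, fell only in the comparison of tobacco on charcoal at 2 h (-0.27) among the 8 comparisons with control. Of 14 genes in the files that are PPAR receptors or targets, 8 were tested. At 2 h 0, 1, 0 and 0 of them rose and 1, 1, 2 and 2 fell, RXRA, a PPAR partner, falling in all 4. Of all genes 8.16%, 10.6%, 8.5% and 9.27% rose and 16.2%, 27.7%, 26.7% and 24.8% fell in these comparisons. The counts that fell are thus near or below what all genes show. At 24 h 0, 3, 4 and 4 rose and 0, 1, 1 and 3 fell, with medians of 0.06, 0.12, 0.12 and 0.12 against 0.02, 0.03, 0.04 and 0.03 for all genes. Of all genes, 6.05%, 16.5%, 25.9% and 34.3% rose and 3.82%, 10.4%, 18.6% and 29.5% fell at this time, so that with the electric heater the counts of both directions are near what all genes show. ACADVL, an enzyme of mitochondrial fatty acid oxidation, fell there from 77.0 ± 1.06 to 45.6 ± 5.88 FPKM (-0.75, adjusted p = 1.43e-09). SLC25A20, the carnitine carrier of mitochondria, rose with electrically heated tobacco by 0.71, from 5.58 ± 0.149 to 9.74 ± 0.112 FPKM (adjusted p = 3.11e-08).

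Some other angiogenic ligands rose at 2 h. Of 24 such ligands listed, 19 were in the files and 12 tested; 6, 5, 5 and 2 rose and 0, 1, 2 and 2 fell at 2 h (charcoal, herbal, tobacco on charcoal, electric heater). Of all genes 8.16%, 10.6%, 8.5% and 9.27% rose and 16.2%, 27.7%, 26.7% and 24.8% fell in these comparisons. CYR61, a matrix-bound integrin ligand, went from 176.7 ± 3.50 to between 592.5 ± 18.8 and 701.5 ± 30.2 FPKM (1.74 to 1.98, adjusted p from 2.10e-10 to 1.66e-09). HBEGF, a ligand of the EGF receptor, went from 18.5 ± 0.269 to between 86.7 ± 27.9 and 122.0 ± 6.17 FPKM (2.11 to 2.65). The list medians were 0.43, 0.17, 0.13 and -0.0035, against -0.08, -0.07, -0.08 and -0.04 for all genes. At 24 h 2, 2, 5 and 3 ligands rose and 0, 1, 2 and 6 fell. The medians were -0.07, -0.01, 0.16 and -0.24 against 0.02, 0.03, 0.04 and 0.03 for all genes. At this time 6.05%, 16.5%, 25.9% and 34.3% of all genes rose and 3.82%, 10.4%, 18.6% and 29.5% fell. Several of the ligand counts are near those shares.

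Among the VEGF family, the placenta growth factor PGF behaved differently from VEGFA at 24 h. It was not called at 2 h, and rose with tobacco on charcoal (0.79, adjusted p = 0.00859) and with tobacco on the electric heater, from 1.53 ± 0.260 to 18.7 ± 9.48 FPKM (2.83 ± 0.23, adjusted p = 5.89e-10). The same 2 comparisons are those in which VEGFA differed by -0.97 and -0.36. FIGF, the gene of VEGF-D, rose after all 4 exposures at 24 h (0.35, 0.56, 0.89 and 0.47). VEGFB already differed in direction from VEGFA at 2 h. It fell with herbal shisha (-0.47, adjusted p = 0.000324) and tobacco on charcoal (-0.28, adjusted p = 0.0211). With charcoal alone (-0.19) and the electric heater (-0.10) it was not called at 2 h, and it was not called at 24 h. APLN, the ligand of the apelin receptor, fell with herbal shisha, tobacco on charcoal and tobacco on the electric heater with differences of -0.79, -1.36 and -1.44.

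The HIF pathway was examined because VEGFA, ADM and ANGPTL4 are targets of it. The libraries hold mRNA levels only, so HIF protein and its activity were not measured. HIF1A mRNA was not called at 2 h (differences of 0.04, 0.01, -0.06 and -0.13) and rose at 24 h only in the comparison of charcoal with control (0.37). EPAS1, the gene of HIF-2α, fell at 2 h after herbal shisha, tobacco on charcoal and tobacco on the electric heater (-0.16, -0.18 and -0.18). At 24 h it rose with charcoal and the electric heater (0.37 and 0.17) and fell with herbal shisha and tobacco on charcoal (-0.35 and -0.14). EGLN3, an oxygen sensor that marks HIF for degradation and is itself induced by HIF, rose at 2 h after all 4 exposures, by 0.86, 0.66, 0.50 and 0.43. Its level was low, with group means of 0.511 to 1.74 FPKM. Other genes of this list fell at 2 h. HIF1AN differed by -0.25 with charcoal, -0.25 with tobacco on charcoal and -0.45 with the electric heater. VHL differed by -0.53 with herbal shisha, -0.59 with tobacco on charcoal and -0.42 with the electric heater. In all, 6 of 7 HIF factors and oxygen sensors in the files were tested; 1 rose in each 2 h comparison and 2, 4, 3 and 3 fell, and at 24 h 2, 1, 1 and 2 rose and 0, 1, 4 and 1 fell. The medians at 2 h were -0.04, -0.18, -0.17 and -0.18 against -0.08, -0.07, -0.08 and -0.04 for all genes. Of all genes 8.16% to 10.6% rose and 16.2% to 27.7% fell at 2 h. At 24 h the medians were 0.18, -0.12, -0.17 and -0.0055 against 0.02, 0.03, 0.04 and 0.03 for all genes. Of all genes, 6.05%, 16.5%, 25.9% and 34.3% rose and 3.82%, 10.4%, 18.6% and 29.5% fell at this time.

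Of 29 further hypoxia target genes, mostly of glycolysis, mitochondria and matrix, 24 were in the files and 21 tested. At 2 h, when the 3 angiogenic genes rose, 3, 6, 5 and 2 of the 21 rose and 2, 3, 3 and 3 fell. The medians were -0.06, 0.07, 0.04 and -0.06, against -0.08, -0.07, -0.08 and -0.04 for all genes. Of all genes 8.16%, 10.6%, 8.5% and 9.27% rose and 16.2%, 27.7%, 26.7% and 24.8% fell. The counts that fell, and the count that rose with the electric heater, are near or below those shares. PFKFB3, which drives glycolysis, rose after the 3 charcoal exposures (0.89, 0.75 and 0.58), while ANKZF1, a ribosome quality control gene, fell after all 4 (-0.83, -0.61, -0.83 and -0.30). These counts were unstable: with charcoal alone 5 called genes became 3 or 4 when any 1 well was left out and 10 in a fit on the 2 groups alone. With the electric heater 5 became 3 in that fit, and 3, 3 or 2 without 2 h control well 1, 2 or 3. At 24 h 0 of the 21 rose in any comparison and 9, 20, 21 and 19 fell. The medians were -0.27, -0.60, -0.86 and -0.75 against 0.02, 0.03, 0.04 and 0.03 for all genes. At this time 6.05%, 16.5%, 25.9% and 34.3% of all genes rose and 3.82%, 10.4%, 18.6% and 29.5% fell. BNIP3, a mitophagy receptor, went from 162.5 ± 4.20 FPKM in controls to 64.6 ± 11.8, 40.4 ± 0.904 and 43.4 ± 1.30 FPKM with herbal shisha, tobacco on charcoal and the electric heater. LOX, the enzyme that crosslinks collagen, went from 15.2 ± 0.0751 to 4.40 ± 0.268 FPKM with the electric heater (-1.59). These 4 comparisons share the 24 h controls, in which 20 of the 21 genes had risen since 2 h (median 0.74, against -0.01 for all genes). VEGFA was below control with this list in all 4 comparisons of 24 h, though not called after charcoal. ADM was called higher with tobacco on charcoal (0.47) where 21 of 21 targets fell, and ANGPTL4 with the electric heater (2.31) where 19 fell.

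**Figure D3:**
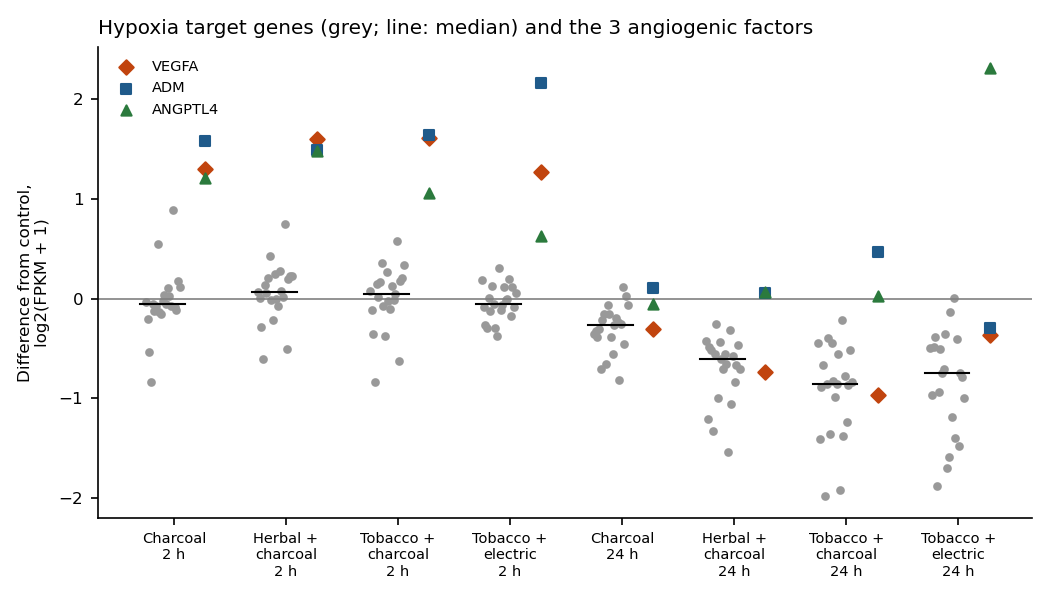
Difference from control in log2(FPKM + 1) for 21 tested hypoxia target genes (grey points, line at their median) and for VEGFA, ADM and ANGPTL4 (coloured) in the 8 comparisons. At 2 h the 3 genes lie above a list centred near 0; at 24 h the list lies below 0 with VEGFA, while ADM after tobacco on charcoal and ANGPTL4 after electrically heated tobacco lie above 0.

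The genes whose pattern over the 10 group means was most like each of the 3 were different sets. For VEGFA the 5 closest were PPP1R3B (r = 0.947), MYADM, LBH, KLF5 and ARID5B (r = 0.922). PPP1R3B, a glycogen-targeting phosphatase subunit, went from 1.33 ± 0.0994 FPKM in control to 9.85 ± 0.262 FPKM with tobacco on charcoal at 2 h. For ADM they included IL6 (r = 0.982), NUAK2, LOC100652768 and JUN (r = 0.965). IL6, an inflammatory cytokine, went from 7.44 ± 0.236 to 23.0 ± 3.26 FPKM with the electric heater at 2 h, and JUN, an AP-1 subunit, from 41.8 ± 0.531 to 231.1 ± 38.1 FPKM. For ANGPTL4 the 5 closest were SLC3A2 (r = 0.973), ABHD5, C1orf52, FBXO33 and RNF19B (r = 0.958). SLC3A2, the heavy chain of amino acid exchangers, went from 95.4 ± 5.32 FPKM in the 24 h controls to 345.0 ± 93.0 FPKM with the electric heater. Between the 3 genes themselves r was 0.787 for VEGFA and ADM, 0.450 for VEGFA and ANGPTL4 and 0.191 for ADM and ANGPTL4. These values describe 10 group means that share libraries and a strong 2 h against 24 h contrast, and carry no test. ANGPTL4 and its 5 closest genes were all highest with the electric heater at 24 h (ANGPTL4 4.72 FPKM, next group 1.90 FPKM). That single group therefore weighs heavily in their r.

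**Figure D4:**
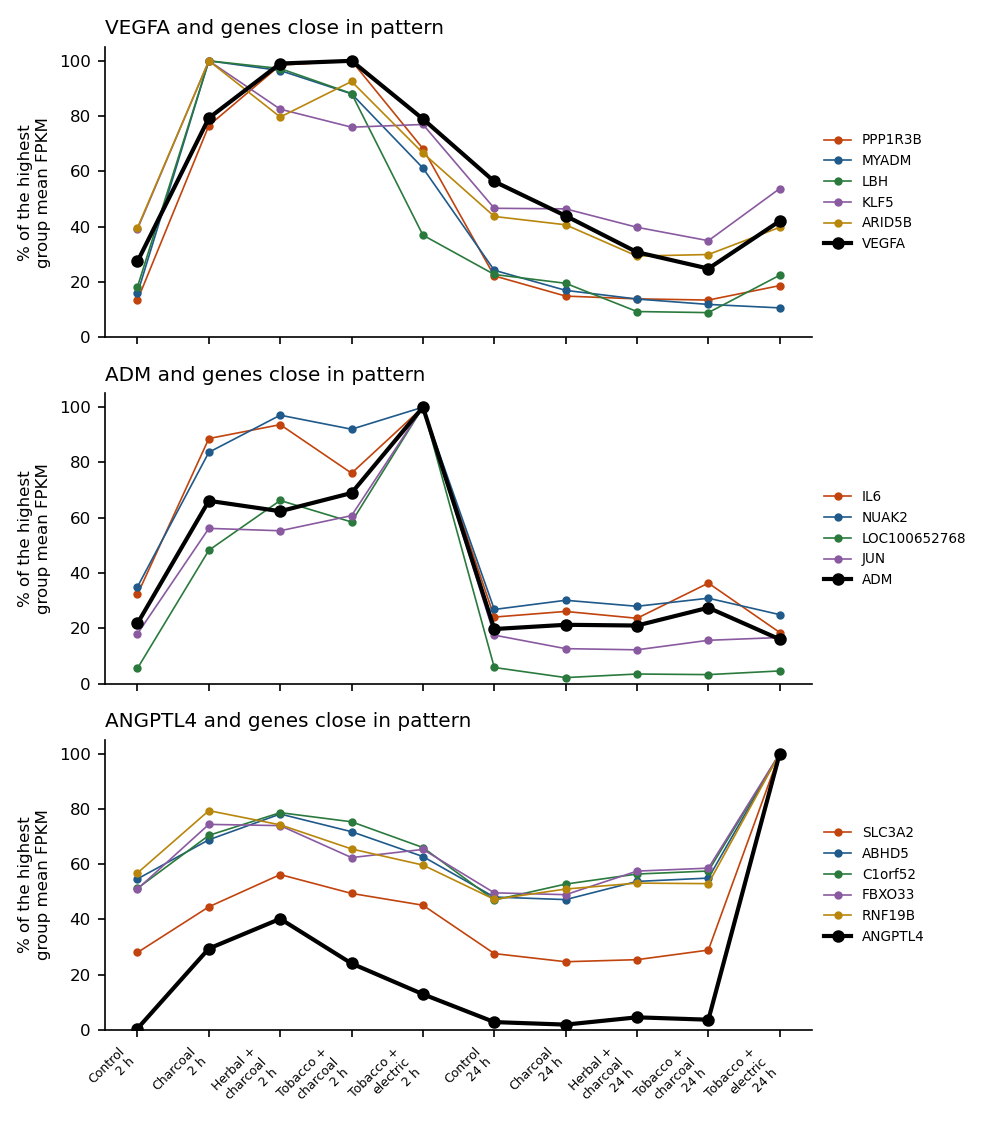
Group mean FPKM as a percentage of each gene's highest group mean, for VEGFA, ADM and ANGPTL4 (black) and 4 or 5 of the genes with the highest correlation to each (coloured), over the 10 groups of 3 wells; lines only join the points, and ANGPTL4 means include wells listed at 0. VEGFA peaks with tobacco on charcoal at 2 h, ADM with the electric heater at 2 h and ANGPTL4 with the electric heater at 24 h.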

How the data were processed

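RNA-seq of 30 BEAS-2B wells was used. Per the labels, libraries were made with a TruSeq RNA kit from 1 µg of total RNA. The authors deposited FPKM values per gene row, made with HISAT2 2.1.0 and StringTie 1.3.4d on hg38 per the submitters' processing notes. No source used here gives the annotation release, the filters or a strand setting. The files hold no read totals; FPKM summed to 199985 to 220259 per library, and 7598 to 7944 genes reached 1 FPKM. Relative depth was estimated from the most common ratio of low values (under 0.05 FPKM) between each library and the first 2 h control well. The estimates were 0.729 to 1.53 times the depth of that well. In the other libraries 7.84% to 14.0% of the rows compared lay at that ratio, and the estimates were not tested. Of 8023 rows with a median of at least 1 FPKM, 171 hold an exact 0 in some library, so such values are called listed at 0.

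The row with the highest mean was taken per gene name. Genes with FPKM of at least 1 in at least 3 libraries (8531) were fitted as log2(FPKM + 1) with limma 3.58.1 (R 4.3.3), with 10 group means over all 30 libraries, trended empirical Bayes and Benjamini-Hochberg adjustment per comparison, 29 comparisons in all. The fit was tested on simulated data. The genes studied and the lists were chosen with earlier results of these data known. Named list genes were, per list and comparison with control, up to 2 called genes with the smallest adjusted p, and others were named after their values were seen. The genes most like each member were the 5 with the highest Pearson correlation over group means. Some genes that these rules select are not reported here. Alternatives were a replicate block, median-of-ratios scaling, no filter, a pseudocount of 0.1, a fit on the compared groups alone, summed rows, each well left out and, chosen after seeing the data, a filter on a mean of 0.5 FPKM. Promoter windows and gene positions came from RefSeq, exons from GENCODE, with Python 3.11.15.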

Additional observations from a re-analysis of the deposited data

Results flagged for a closer look

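For each of the 3 genes the effect of every exposure differed between 2 h and 24 h by an interaction test in limma. The effect at 24 h minus the effect at 2 h, in log2(FPKM + 1), was as follows for charcoal, herbal shisha, tobacco on charcoal and tobacco on the electric heater. For VEGFA it was -1.61, -2.33, -2.58 and -1.63 (adjusted p from 3.25e-10 to 3.58e-07). For ADM it was -1.46, -1.44, -1.17 and -2.46 (adjusted p from 3.50e-09 to 0.000113). For ANGPTL4 it was -1.27, -1.41 and -1.04 over charcoal (adjusted p from 0.000544 to 0.00515) and 1.68 on the electric heater (adjusted p = 2.37e-05). The 4 tests of a gene share the control wells of both times, and the VEGFA level of those controls itself rose by 0.86.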

How the results depend on the processing

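Of the 87 differences for VEGFA, ADM and ANGPTL4, those listed here changed their sign or their side of the threshold under an alternative; the cause was not tested. Replicate numbers are shared between groups, and the labels do not say whether they mark a day or batch. Same-numbered wells deviated together weakly (median correlation 0.026 over 30 pairs at 2 h and 0.043 at 24 h). For wells of different numbers the medians were -0.0080 and -0.024 over 60 pairs each. Same-numbered wells were not taken as pairs. With a replicate block 4 calls were lost: VEGFA with the electric heater against herbal shisha (-0.33) and tobacco on charcoal (-0.34) at 2 h, and ADM with tobacco against charcoal (0.36) and the electric heater against herbal shisha (-0.35) at 24 h. It changed no other call on the 3 genes. The block also took the called hypoxia targets after charcoal at 2 h from 5 to 3. Without the filter on low values the same 4 differences (-0.33, -0.34, 0.36 and -0.35) missed the threshold, and hypoxia targets went from 5 to 3 after charcoal and from 5 to 3 with the electric heater at 2 h. Median-of-ratios scaling ended the 2 ADM calls (0.36 and -0.34). With a pseudocount of 0.1, ANGPTL4 against control at 24 h turned to -0.13 (herbal) and -0.33 (tobacco on charcoal), and to -0.039 for tobacco against charcoal. The same pseudocount ended the calls of the electric heater at 2 h for ANGPTL4 against charcoal (-1.16) and herbal shisha (-1.56) and for VEGFA against herbal shisha (-0.36) and tobacco on charcoal (-0.37), and that of the ANGPTL4 interaction (1.94). Fits on the compared groups alone called ADM with the electric heater against control at 24 h (-0.29) and VEGFA with herbal (0.29) and tobacco shisha (0.31) against charcoal at 2 h. They lost ANGPTL4 (-0.58, electric heater against charcoal), VEGFA (-0.33 and -0.34) and ADM (-0.35), and gave 10 hypoxia targets after charcoal and 3 with the electric heater at 2 h. Summing rows of a name, and the filter on a mean of 0.5 FPKM, changed no call.

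Leaving out 1 well at a time moved the following values at least once past the threshold, or to the other sign where they were not called. Against control these were ANGPTL4 with the electric heater at 2 h (0.47 to 0.78) and, at 24 h, ADM (-0.11 to 0.29) and ANGPTL4 (-0.16 to 0.19) with herbal shisha, and ADM (0.39 to 0.52) and ANGPTL4 (-0.18 to 0.12) with tobacco on charcoal. With the electric heater at 24 h they were VEGFA (-0.41 to -0.31) and ADM (-0.38 to -0.23). Against charcoal at 2 h they were ADM with herbal (-0.18 to 0.016) and tobacco shisha (-0.030 to 0.17), and VEGFA (-0.14 to 0.18) and ANGPTL4 (-0.74 to -0.43) with the electric heater. VEGFA at 2 h ranged from -0.014 to 0.034 for tobacco against herbal shisha, and with the electric heater from -0.44 to -0.12 against herbal shisha and from -0.45 to -0.13 against tobacco on charcoal, where ADM ranged from 0.42 to 0.65. Against charcoal at 24 h they were VEGFA (-0.50 to -0.35), ADM (-0.22 to 0.18) and ANGPTL4 (-0.10 to 0.24) with herbal shisha, ADM (0.34 to 0.39) and ANGPTL4 (-0.13 to 0.18) with tobacco shisha, and VEGFA (-0.10 to 0.011) and ADM (-0.47 to -0.34) with the electric heater. Against herbal shisha at 24 h they were ADM (0.18 to 0.58) and ANGPTL4 (-0.25 to 0.18) with tobacco on charcoal, and VEGFA (0.30 to 0.45) and ADM (-0.58 to -0.18) with the electric heater. The called hypoxia targets at 2 h were 3 to 4 after charcoal and 2 to 5 with the electric heater. None of the 90 fits of changes over time and the 144 fits of interactions with a well left out changed a call. The files hold FPKM and no read counts, so no counting error is given; the steps of the low ANGPTL4 values point to few counts only if a step is 1 read.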

Other observations

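Angiogenesis inhibitors were also measured, 8 of 12 listed genes being in the files and 5 tested. At 2 h 2, 2, 2 and 1 of them rose and 0, 2, 1 and 2 fell after charcoal, herbal shisha, tobacco on charcoal and tobacco on the electric heater, with medians of -0.01, 0.10, 0.12 and 0.12 against -0.08, -0.07, -0.08 and -0.04 for all genes. Of all genes 8.16% to 10.6% rose and 16.2% to 27.7% fell. THBS1, thrombospondin 1, went from 230.8 ± 8.65 FPKM in controls to 684.2 ± 88.1, 528.6 ± 18.1 and 529.6 ± 33.0 FPKM in the 3 charcoal groups (adjusted p from 7.40e-08 to 2.98e-06). TIMP3, a metalloproteinase inhibitor that also binds a VEGF receptor, went from 15.3 ± 1.10 to 30.6 ± 0.959 FPKM after charcoal at 2 h. At 24 h 1, 1, 2 and 2 inhibitors rose and 1, 1, 2 and 3 fell, with medians of 0.05, -0.15, -0.09 and -0.49 against 0.02, 0.03, 0.04 and 0.03. Of all genes, 6.05%, 16.5%, 25.9% and 34.3% rose and 3.82%, 10.4%, 18.6% and 29.5% fell at this time. With 5 genes tested, these counts are too small to be read against those shares. With the electric heater at 24 h TIMP1 rose by 0.56 and THBS1 and TIMP2 fell (-1.40 and -0.75).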
